A study of Mus musculus with 35 samples.

Results

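The wide peaks described here are the 2161 autosomal regions of the deposited ATAC-seq peak table whose end lay 2000 bp or more beyond their start, out of 76018 peaks in all. They were chosen by width and chromosome alone, with no use of the counts, and 46 further peaks of that width on chromosomes X and Y were left out. Width itself comes from peak calling. The reads on which peaks were called are not given, so width may not be independent of the counts. The working description of these regions as promoter-like was not tested, because no gene annotation of build mm9, the build of the peak positions, was used here. They are therefore called wide peaks, and each is named by its mm9 position as the table writes it. The comparison class was the 71814 autosomal peaks under 2000 bp.

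ATAC-seq treats nuclei with the transposase Tn5, which cuts and tags DNA that is not wrapped tightly in nucleosomes, so more reads come from open stretches. In the endothelial-to-hematopoietic transition, flat endothelial cells (EC) lining the large arteries of the embryo give rise to hemogenic endothelium (HE), which then yields rounded blood progenitors and the precursors of hematopoietic stem cells (pre-HSC). A peak caller reports a wide interval where open stretches adjoin one another, as often happens at CpG-rich promoters and in clusters of enhancers. Accessibility at promoters is known to vary less between cell types than accessibility at distal enhancers.

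The 35 libraries fell into 9 groups, all from mice labelled 23GFP transgenic and each library from a pool of 1500 sorted cells amplified with 13 PCR cycles. There were 4 libraries each of HE and EC on each of E8.5, E9.5 and E10.5, 3 libraries of a population labelled pro-HSC/HPC at E9.5, where HPC is hematopoietic progenitor cell, and 4 each of pre-HSC II and pre-HSC I at E10.5. The tissue was labelled AGM+VU at E10.5 and PAS+VU at E8.5. The E9.5 samples also carry the tissue label E8.5 PAS+VU, and their day was taken from the title. The change of day between E9.5 and E10.5 therefore cannot be told apart from the change of tissue label. What drives the transgene, which markers the cells were sorted on and whether libraries came from separate litters are not given in the labels, so the spread behind each p-value may be technical. The labelled cell types could not be checked against marker genes without an annotation. Counts in peaks ran from 456770 to 7415315 per library, with pre-HSC II the shallowest group at 456770 to 1241216. Libraries 2 and 3 of pre-HSC I differed by less than the sampling noise, so their mean was counted as 1 sample, for 34 samples in all.

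The wide peaks made up 2.84% of all peaks, 11.3% of the bases covered by peaks and a mean of 20.8% of the counts over libraries. Their width ran from 2000 to 8256 bp with a median of 2385 bp, against a median of 483 bp for autosomal peaks under 2000 bp. Of the 2161, 1270 were under 2500 bp, 490 were from 2500 bp up to 3000 bp, 296 from 3000 bp up to 4000 bp and 105 were 4000 bp or more. They were denser as well as wider. The median count density was 30.6 CPM per kb (CPM, a library's count scaled to the same total for all) in wide peaks and 10.6 CPM per kb in autosomal narrower peaks, 2.89 times as high. To compare like with like, narrower peaks were weighted so that their density had the distribution of the wide peaks, which used 62720 tested narrower peaks with a weighted median width of 1070 bp. Peaks of like density still hold fewer counts, a median of 33.4 CPM against 78.8 CPM in wide peaks, and fewer counts give a noisier value. A weighting by mean count in place of density, with 26236 narrower peaks and a median width of 1511 bp, is therefore given beside it.

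Wide peaks lay close to other peaks. Another peak began or ended within 1000 bp of 774 wide peaks, 35.8% of them, and of 20.7% of narrower peaks of like density. The median gap to the nearest peak was 2245 bp for wide peaks and 4526 bp for autosomal narrower peaks, and 153 wide peaks had another wide peak within 5000 bp. Their share of the peaks on an autosome ran from 2.39% on chromosome 2 to 3.80% on chromosome 13. At the threshold itself, the narrowest wide peaks were chr11:58766958-58768958 and chr14:64561046-64563046, both 2000 bp, with mean levels of 50.6 and 28.6 CPM. The widest autosomal peaks outside it were chr4:14790541-14792540 and chr4:47365068-47367067, both 1999 bp, with mean levels of 68.2 and 92.0 CPM.

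The share of counts in wide peaks was lowest in pre-HSC II and in the shallower E8.5 libraries. At E8.5 the share was 18.1%, 18.3%, 21.1% and 21.0% in HE libraries 1 to 4, against 18.2%, 17.2%, 20.9% and 20.1% in EC libraries 1 to 4. In both E8.5 populations libraries 1 and 2, with 1004036 to 1634087 counts, were lower than libraries 3 and 4, with 2666067 to 5733154 counts, while HE and EC overlapped. At E9.5 the share was 20.9%, 21.5% and 20.9% in pro-HSC/HPC, 22.3%, 21.3%, 22.6% and 23.5% in HE and 22.3%, 22.1%, 22.0% and 22.7% in EC. HE and EC overlapped there as well. The E9.5 EC library with 1170513 counts, library 3, had 22.0%. It also held 6470 counts in a single peak on chromosome X. The part of depth in the share was not tested. At E10.5 the share was 17.9%, 17.0%, 18.3% and 18.8% in pre-HSC II, 22.4%, 21.8% and 20.6% in pre-HSC I, 20.8%, 21.9%, 25.1% and 19.3% in HE and 19.9%, 20.7%, 23.9% and 21.8% in EC. All pre-HSC II libraries lay below all libraries of the other E10.5 groups. E10.5 HE library 4 with 1101787 counts and pre-HSC II library 4 with 1241216 counts were of like depth, at 19.3% and 18.8%. Library 3 was the highest of its group in both E10.5 HE and E10.5 EC.

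As group means, the share was 18.01 ± 0.76% in pre-HSC II, 21.6 ± 0.88% in pre-HSC I, 21.8 ± 2.4% in E10.5 HE and 21.6 ± 1.7% in E10.5 EC (SD, n = 4, 3, 4 and 4). It was 21.1 ± 0.31% in pro-HSC/HPC, 22.4 ± 0.91% in E9.5 HE and 22.3 ± 0.32% in E9.5 EC (SD, n = 3, 4 and 4), and 19.6 ± 1.6% in E8.5 HE and 19.1 ± 1.7% in E8.5 EC (SD, n = 4 each). No test is given for the share, since it is a score over the chosen regions. Narrower peaks of like density moved in a similar way, although the ratio of wide peaks to them was lowest in pre-HSC II. The counts in wide peaks were 2.10 ± 0.083 times the weighted counts of like-density narrower peaks in pre-HSC II, against 2.24 ± 0.048 times in pre-HSC I and 2.172 ± 0.085 times in E10.5 EC, and the libraries of these groups overlapped. E10.5 HE, at 2.26 ± 0.13 times, overlapped with pre-HSC II as well. At E9.5 the ratio was 2.27 ± 0.053 in pro-HSC/HPC, 2.30 ± 0.033 in HE and 2.28 ± 0.047 in EC. All E9.5 libraries lay above all pre-HSC II libraries in this ratio. With like mean count the ratios were 0.992 ± 0.039 in pre-HSC II, 1.02 ± 0.031 in pre-HSC I and 1.04 ± 0.040 in E10.5 EC. In bulk pools such as these, fewer cells with an open region and less opening per cell cannot be told apart.

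**Figure D1:**
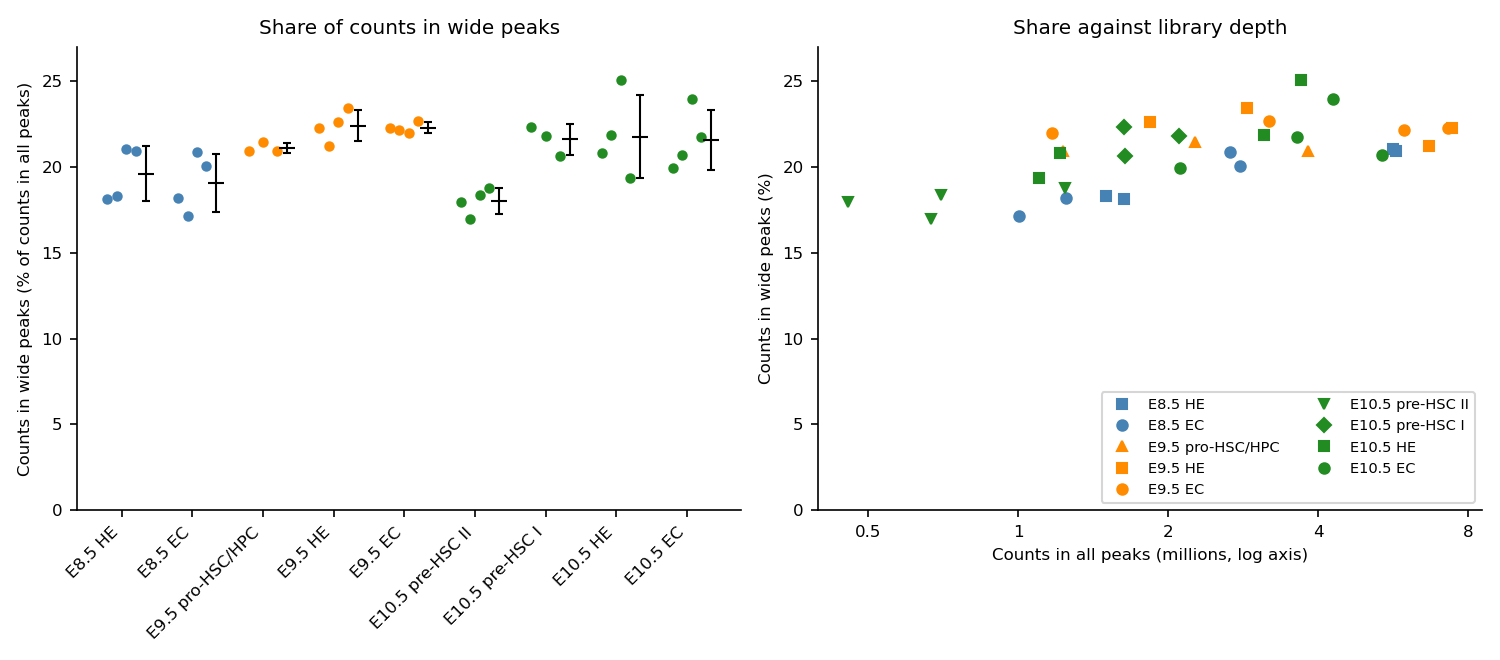
Left, percent of each library's counts that lay in wide peaks (points) with the mean and SD of each group (black); right, the same percent against the library's counts in all peaks on a log axis. The pre-HSC II libraries sit between 17.0% and 18.8%, below every other E10.5 library, and are among the shallowest; the 4 low E8.5 points are libraries 1 and 2 of HE and EC.

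Wide peaks varied less between libraries and between groups than narrower peaks of like density, and about as much as narrower peaks of like mean count. The median biological coefficient of variation, the spread between replicates beyond counting noise in the fitted model, was 0.225 for wide peaks, 0.257 at like density, 0.222 at like mean count and 0.433 over all tested peaks. The median range over the 9 group means was 0.99 on the log2 CPM scale for wide peaks, 1.21 at like density, 0.93 at like mean count and 1.81 over all tested peaks. A range of 4-fold or more was seen in 182 wide peaks, 8.42% of them, against 24.8% at like density, 12.0% at like mean count and 41.7% of all tested peaks. The range stayed under 2-fold in 1094 wide peaks, 50.6%. These are descriptions without a test.

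Accessibility differed among the 9 groups in most wide peaks. In edgeR's quasi-likelihood F test over all groups at a Benjamini-Hochberg adjusted p of 0.05, 1389 of 2161 were called, 64.3%, beside 42.1% of all tested peaks. The share was 51.7% at like density and 60.3% at like mean count. At least 1 of the 11 comparisons between groups called 1255 (58.1%), beside 33.1% of all tested peaks, 46.55% at like density and 54.95% at like mean count, and 906 (41.9%) were called in none. In 4 or more comparisons 55 were called (2.545%), beside 1.61% of all tested peaks, 4.92% at like density and 4.665% at like mean count. In a comparison other than those with pre-HSC II or of E9.5 EC against E8.5 EC, 185 were called (8.56%), beside 8.10% of all tested peaks, 12.4% at like density and 9.78% at like mean count. By group mean, 1269 wide peaks (58.7%) were lowest in pre-HSC II, against 46.6% at like density and 34.4% of all tested peaks, and 650 (30.1%) were highest in E9.5 EC, against 20.5% at like density and 12.0% of all tested peaks.

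**Figure D2:**
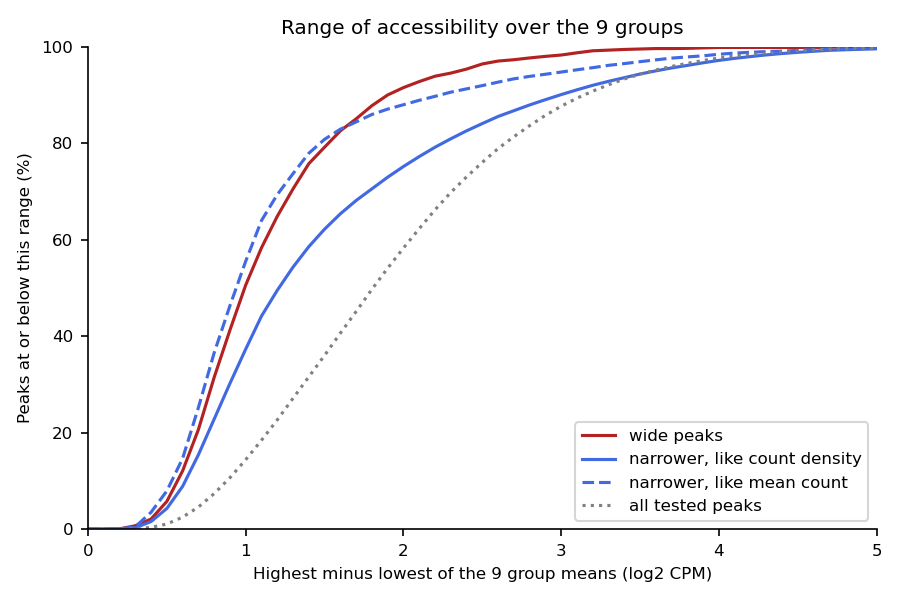
Percent of peaks (vertical axis) whose highest group mean exceeded the lowest by at most the value on the horizontal axis, in log2 CPM, for wide peaks, narrower peaks weighted to like density or like mean count, and all tested peaks. The wide peaks' line runs left of the like-density line, with a median of 0.99 against 1.21, and beside the like-count line, with a median of 0.93.

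The most even wide peaks had close mean levels in all 9 groups. The smallest range, 0.18 on the log2 scale, was at chr16:87697930-87700830, 2900 bp wide. Its mean level was 125.3 ± 7.0 CPM in E8.5 HE and 114 ± 11 CPM in E8.5 EC, 127 ± 12 CPM in E9.5 HE and 115 ± 9.6 CPM in the EC of that day, and 112 ± 16 CPM in E10.5 HE and 125 ± 18 CPM in E10.5 EC (SD, n = 4 each). Pro-HSC/HPC had 116 ± 16 CPM (SD, n = 3), and pre-HSC II had 126 ± 47 CPM with single libraries from 90.8 to 192.9 CPM. The group means lay within their spreads of each other (adjusted p = 0.985 over the 9 groups, edgeR). The next were chr11:110925682-110928245 and chr3:142056651-142059445, with ranges of 0.21 and 0.22 and adjusted p of 0.989 and 0.995, which does not show that their levels were equal. These peaks were picked by the same group means that the F test compares, so their high p-values are no separate support for evenness.

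Width alone did not mark a peak as even. The widest, chr4:94713400-94721656 at 8256 bp, had a mean level of 458 CPM and was called in no direct comparison, although the F test over the 9 groups passed (adjusted p = 0.0414, edgeR). Its lowest group mean was 338 ± 53 CPM in E8.5 EC and its highest, in pre-HSC II, was 520 ± 128 CPM (SD, n = 4 each), whose libraries overlapped with those of most groups. The widest after it, chr13:23661476-23668942 at 7466 bp, had 287.4, 315.2, 307.7 and 295.2 CPM in the E9.5 EC libraries, against 92.9, 92.5, 219.8 and 191.1 CPM in the E8.5 EC libraries. It rose by 1.00 ± 0.23 on the log2 scale (SE; adjusted p = 0.00236, edgeR), with E8.5 EC libraries 1 and 2, the shallow ones, lowest. The change was 0.45 with cyclic loess offsets (adjusted p = 0.0415, edgeR) and 0.52 without the 4 shallow E8.5 libraries, where it was not called (adjusted p = 0.32). Next in width, chr2:26444832-26452287 at 7455 bp, had 24.4, 20.04, 97.9 and 32.7 CPM in the pre-HSC II libraries, against 140.5, 242.3, 398.9 and 235.7 CPM in the E10.5 EC libraries. These groups did not overlap, and the peak fell by 2.53 ± 0.34 on the log2 scale (adjusted p = 6.17e-08, edgeR).

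The wider classes were called more often. Of the 105 peaks of 4000 bp or more, 89 (84.8%) were called in at least 1 of the 11 comparisons, against 704 (55.4%) of the 1270 peaks under 2500 bp. In pre-HSC II against E10.5 EC the median log2 change was -0.93 in the 105 widest and -0.55 in the 1270 narrowest of the wide peaks. In E9.5 EC against E8.5 EC it was 0.64 and 0.33. The widest class also held more counts, a median of 169 CPM against 66.8 CPM. By count density the gradient was similar, with medians of -0.67 in the 541 densest and -0.27 in the 540 least dense for pre-HSC II against E10.5 EC. Calls of HE against EC went the other way, with 2 of the 541 densest called at E10.5 and 17 of the 540 least dense. The difference between classes was not tested.

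HE differed from EC in few wide peaks at each day, and most of these calls were made under all 4 scalings. At E8.5, HE was above EC in 25 of 2161 and below it in 4 (1.16% and 0.185%), beside 1.3% and 0.131% of all tested peaks. At E9.5, 19 were higher and 33 lower in HE (0.879% and 1.53%), beside 1.36% and 1.23% of all tested peaks. At E10.5, 8 were higher and 38 lower in HE (0.370% and 1.76%), beside 0.717% and 1.57% of all tested peaks. In the more frequent direction of each day, narrower peaks of like density were called more often, with 2.58% higher at E8.5, 2.67% lower at E9.5 and 4.00% lower at E10.5. The shares at like mean count were 1.98%, 1.57% and 2.68% for those directions. The median log2 change of the wide peaks was 0.10 at E8.5, 0.00 at E9.5 and -0.02 at E10.5, and of all tested peaks 0.02, 0.05 and 0.01. Under TMM, RLE size factors, cyclic loess offsets and DESeq2 alike, 23 of the 25 and all 4 were called at E8.5, all 19 and all 33 at E9.5, and all 8 and 32 of the 38 at E10.5. At E10.5 the share of calls that were higher was 17.4% with TMM, 32.9% with cyclic loess offsets and 29.1% with DESeq2. Without the 4 shallow E8.5 libraries, which leaves libraries 3 and 4 of each group, 1 wide peak was called at E8.5. Without the 3 E9.5 libraries with 6470 counts or more in a peak on chromosome X, none was called at E9.5. That leaves EC libraries 1 and 2 and HE libraries 1 to 3 at E9.5. Leaving out any 1 library gave 7 to 24 calls at E8.5 and 32 to 40 at E9.5. A loss of calls through fewer libraries was not told apart from one through the libraries left out. At E10.5, where HE and EC libraries of the same number deviated together, a replicate block in the fit of all groups gave 66 calls, 12 higher and 54 lower, against 46 without it. In a fit of these 8 libraries alone the block gave 103 calls and its absence 1.

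The wide peaks lower in HE recurred between E9.5 and E10.5, in shares near those over all tested peaks. Of the 33 lower at E9.5 and the 38 lower at E10.5, 16 were shared, 48.5% and 42.1% of each list, beside 46.9% and 36.8% of the lists over all tested peaks. Of the 19 and 8 higher, 6 were shared, 31.6% and 75.0%, beside 28.3% and 53.9% over all tested peaks. These comparisons share no library. All 33 lower at E9.5 had a negative change at E10.5, with a median of -0.93 on the log2 scale, and 18 of the 19 higher had a positive one, with a median of 0.72. Signs were counted for wide peaks only, so whether other peaks differ in this was not tested. Of the 25 higher in HE at E8.5, 1 (4.0%) was higher and 3 were lower at E9.5, beside 119 (13.6%) and 14 of the 873 over all tested peaks.

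Whether the gap between HE and EC itself changed from one day to the next was tested as an interaction. At E9.5 relative to E8.5 it rose in 10 wide peaks and fell in 26 (0.463% and 1.20%), beside 0.282% and 1.22% of all tested peaks, and without the 4 shallow E8.5 libraries in 0. Without the 3 E9.5 libraries it rose in 0 and fell in 3. At E10.5 relative to E9.5 none was called in either direction, beside 0.0% of all tested peaks higher and 0.0% lower, by edgeR or by DESeq2. At an unadjusted p under 0.05 there were 20 wide peaks and 1770 of all tested peaks.

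Among peaks lower in HE, chr16:30185813-30188647 (2834 bp) had 17.7, 73.2, 70.3 and 37.1 CPM in the E10.5 HE libraries, against 95.7, 148.2, 195.5 and 163.3 CPM in the E10.5 EC libraries. At E9.5 it had 76.2, 90.4, 77.0 and 79.9 CPM in HE, against 179.3, 174.0, 223.7 and 191.4 CPM in EC. HE and EC did not overlap on either day. The peak was lower in HE by 1.56 ± 0.26 on the log2 scale at E10.5 and by 1.24 ± 0.26 at E9.5 (log2 changes of -1.56 and -1.24, SE; adjusted p = 0.000373 and 0.00229, edgeR). At E8.5 HE averaged 78 ± 15 CPM and EC 66 ± 14 CPM (SD, n = 4 each), which overlapped, and the gap changed by -1.49 ± 0.37 at E9.5 relative to E8.5 (SE; adjusted p = 0.021, edgeR). The E9.5 call was lost without the 3 E9.5 libraries (log2 change of -1.10, adjusted p = 0.251). The change of the gap was not called without these, without the 4 shallow E8.5 libraries, without E8.5 EC library 1 or 2 alone, or after thinning each library to 456770 counts (adjusted p = 0.199, 0.299, 0.0731, 0.0505 and 0.054). In pre-HSC II it had 24.4, 28.8, 20.3 and 37.2 CPM, lower than E10.5 EC by a log2 change of -2.42 ± 0.29 (SE; adjusted p = 4.02e-09, edgeR).

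The same sequence was seen at chr19:3685809-3688390 (2581 bp). It had 14.5, 27.9, 24.1 and 18.6 CPM in E10.5 HE, against 47.6, 63.4, 80.5 and 69.5 CPM in E10.5 EC, and 32.4, 37.6, 38.8 and 29.4 CPM in E9.5 HE, against 90.7, 89.3, 84.0 and 93.2 CPM in E9.5 EC. Every HE library lay below every EC library of its day, with log2 changes of -1.58 ± 0.25 at E10.5 and -1.37 ± 0.24 at E9.5 (SE; adjusted p = 0.000268 and 0.000279, edgeR). At E8.5 HE and EC overlapped, at 53.2 ± 5.5 and 43 ± 13 CPM (SD, n = 4 each), and the difference changed by -1.67 ± 0.34 between E8.5 and E9.5 (SE; adjusted p = 0.00491, edgeR). It was not called without the 3 E9.5 libraries or the 4 shallow E8.5 libraries (adjusted p = 0.0812 and 0.214), and was -0.96 after thinning (adjusted p = 0.25). At chr2:84970686-84973368 (2682 bp), E9.5 HE had 51.4, 45.8, 58.8 and 27.4 CPM, against 135.0, 126.7, 152.9 and 137.6 CPM in E9.5 EC. The groups did not overlap, with a log2 change of -1.59 ± 0.29 (SE; adjusted p = 0.000518, edgeR). At E10.5 its change was -1.06 ± 0.30 (SE; adjusted p = 0.0362, edgeR), a call that was lost with cyclic loess offsets (adjusted p = 0.0544), after thinning (adjusted p = 0.145) and without any 1 of E10.5 HE libraries 1, 2 and 4 and E10.5 EC libraries 2 and 3 (adjusted p from 0.0546 to 0.2). Without the 3 E9.5 libraries the E9.5 calls at chr19:3685809-3688390 and chr2:84970686-84973368 were lost (adjusted p = 0.0912 and 0.17), with log2 changes of -1.30 and -1.33.

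Among peaks higher in HE, chr2:172860269-172862589 (2320 bp) had 46.3, 57.7, 44.5 and 52.1 CPM in the E9.5 HE libraries, against 16.8, 17.9, 7.96 and 11.6 CPM in the E9.5 EC libraries. At E10.5 it had 24.2, 27.2, 42.8 and 22.6 CPM in HE, against 6.60, 13.1, 6.92 and 12.0 CPM in EC. The groups did not overlap on either day, with log2 changes of 1.81 ± 0.27 at E9.5 and 1.59 ± 0.28 at E10.5 (SE; adjusted p = 4.14e-05 and 0.0008, edgeR). At E8.5 it had 49.4 ± 4.1 CPM in HE and 36.5 ± 9.9 CPM in EC (SD, n = 4 each), which overlapped. From E8.5 to E9.5 the HE level stayed alike, while EC changed by -1.36 on the log2 scale. The peak was also accessible in pre-HSC II, at 41.8 ± 11 CPM (n = 4), in pre-HSC I, at 44.6 ± 11 CPM (n = 3), and in E9.5 pro-HSC/HPC, at 74.5 ± 10.4 CPM (SD, n = 3). In pre-HSC II it was above E10.5 EC by a log2 change of 2.05 ± 0.30 (SE; adjusted p = 2.83e-07, edgeR). At chr3:8766011-8768463 (2452 bp) E9.5 HE averaged 52.5 ± 3.6 CPM and E9.5 EC 17.3 ± 5.0 CPM, and E10.5 HE averaged 56.2 ± 4.2 CPM and E10.5 EC 26.6 ± 2.8 CPM (SD, n = 4 each). Both differences exceeded the spread between libraries, with log2 changes of 1.55 ± 0.25 and 1.09 ± 0.25 (SE; adjusted p = 0.000111 and 0.00803, edgeR). Without the 3 E9.5 libraries the E9.5 calls at chr2:172860269-172862589 and chr3:8766011-8768463 were lost (adjusted p = 0.0673 and 0.097), with log2 changes of 1.53 and 1.33. The E10.5 call at chr3:8766011-8768463 was lost without E10.5 EC library 2 (log2 change of 1.02, adjusted p = 0.0519).

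Of the wide peaks higher in HE at E8.5, chr11:89977606-89979851 (2245 bp) was called higher in HE at all 3 days. It had 72.2, 94.0, 90.9 and 92.0 CPM in E8.5 HE, against 23.0, 29.7, 28.1 and 22.0 CPM in E8.5 EC. At E9.5 it had 57.0, 84.2, 34.8 and 65.8 CPM in HE, against 20.9, 26.0, 28.3 and 14.8 CPM in EC, and at E10.5 29.0, 34.1, 32.1 and 30.7 CPM in HE, against 17.0, 14.7, 8.65 and 9.68 CPM in EC. HE exceeded EC in every library at each day while both levels were lower at E10.5 than at E8.5, with log2 changes of HE against EC of 1.77 ± 0.30, 1.46 ± 0.30 and 1.35 ± 0.32 (SE; adjusted p = 0.000359, 0.00201 and 0.00932, edgeR). Without the 4 shallow E8.5 libraries the E8.5 change was 1.84 and was not called (adjusted p = 0.124), and without the 3 E9.5 libraries the E9.5 change was 1.36 and was not called (adjusted p = 0.2). The E10.5 call was lost without E10.5 EC library 3 (log2 change of 1.17, adjusted p = 0.0694) and after thinning (0.76, adjusted p = 0.401). In pre-HSC II it had 3.49, 5.01, 0.0 and 7.43 CPM, and its range over the groups, 4.66 on the log2 scale, was among the 3 largest of the wide peaks.

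Lower in HE at E8.5 were chr15:102828384-102830701 and chr10:106708183-106710202. The first had 21.7, 16.2, 24.3 and 16.8 CPM in E8.5 HE, against 67.7, 44.5, 48.1 and 59.2 CPM in E8.5 EC, and the other 28.3, 6.48, 13.4 and 15.7 CPM in E8.5 HE, against 73.5, 55.8, 52.3 and 48.6 CPM in E8.5 EC. The groups did not overlap at either peak (log2 changes of -1.47 ± 0.29 and -1.85 ± 0.40, SE; adjusted p = 0.00209 and 0.00552, edgeR). Without the 4 shallow libraries these calls were lost (adjusted p = 0.241 and 0.297), with log2 changes of -1.42 and -1.82.

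**Figure D3:**
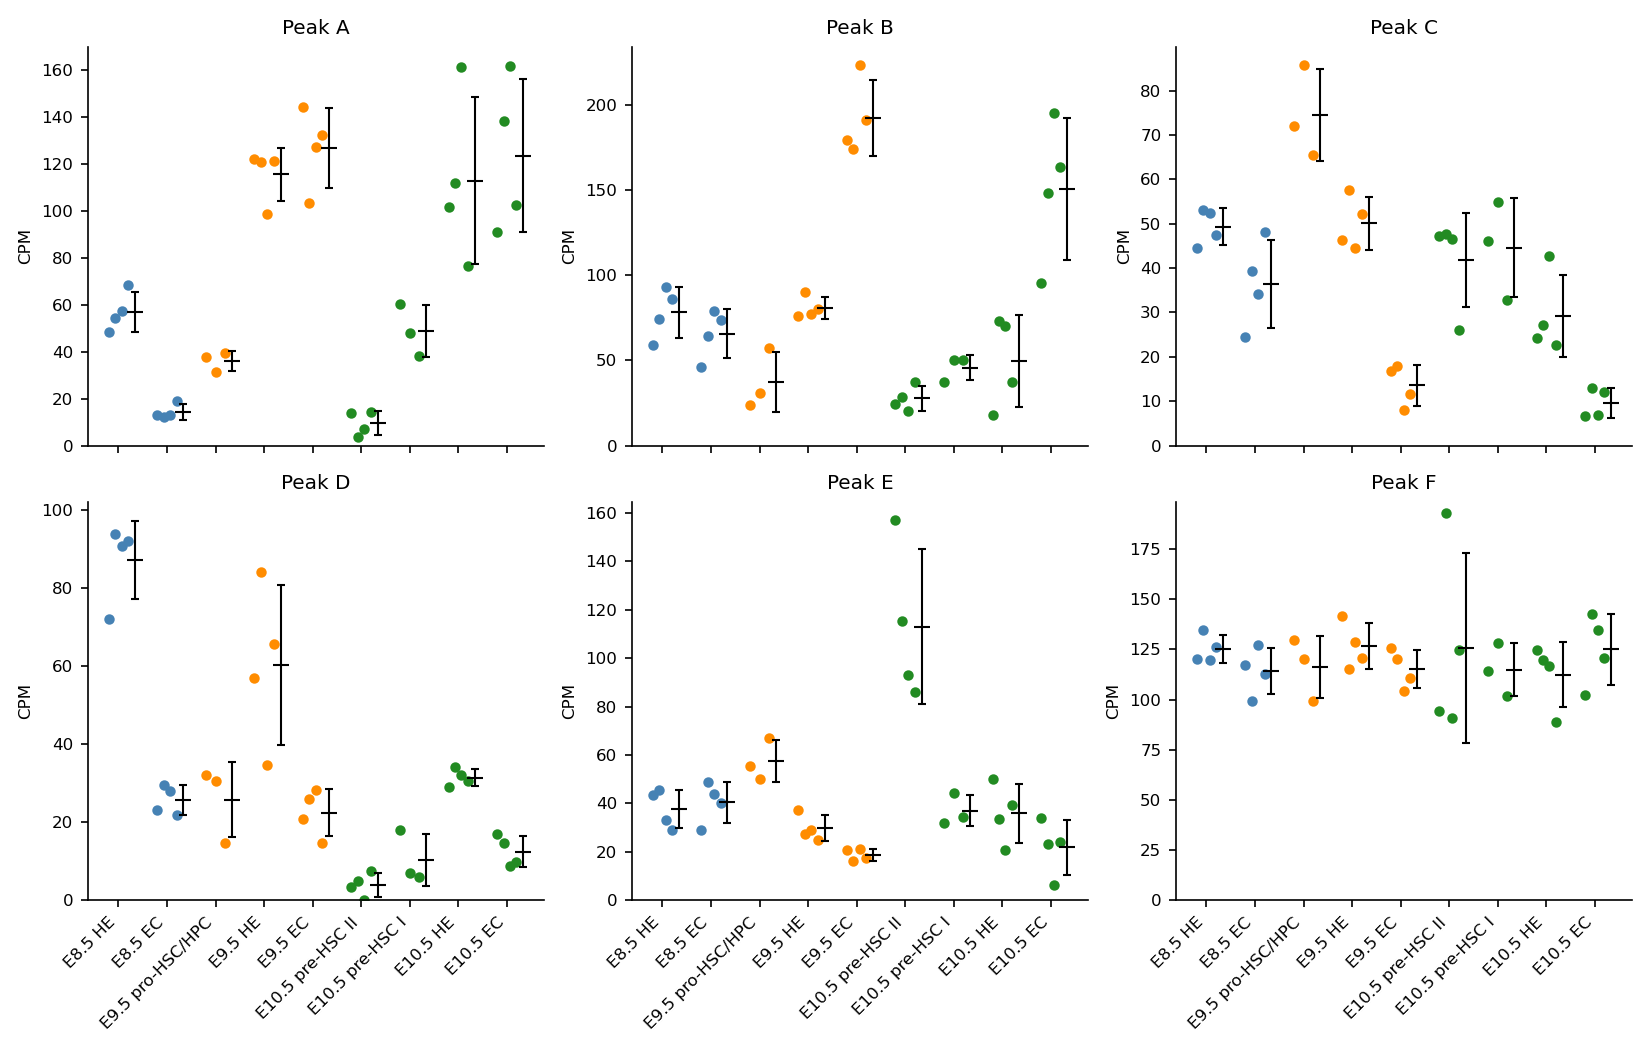
CPM of 6 wide peaks in every library (points), with the mean and SD of each group (black); A is chr10:74826194-74828242, B chr16:30185813-30188647, C chr2:172860269-172862589, D chr11:89977606-89979851, E chr7:95425467-95427797 and F chr16:87697930-87700830. HE lies below EC at B and above EC at C on E9.5 and E10.5, D is higher in HE on each day, E stands out in pre-HSC II at 86.2 to 157.1 CPM, and F shows the smallest range of group means, 0.18 on the log2 scale.

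The blood progenitor populations were compared with the HE of their day. In E9.5 pro-HSC/HPC 3 wide peaks were higher and 26 lower than in E9.5 HE (0.139% and 1.20%), beside 0.644% and 1.09% of all tested peaks. Narrower peaks of like density were lower in 3.06% and those of like mean count in 2.49%. The median log2 change was -0.14 in wide peaks and 0.02 in all tested peaks, and 0.01 in wide peaks with cyclic loess offsets. The share of calls that were higher was 10.3% with TMM and 31.0% with cyclic loess offsets, and 3 and 24 were called alike under all 4 scalings. In E10.5 pre-HSC I 0 wide peaks were higher and 1 lower than in E10.5 HE, beside 0.0566% and 0.0104% of all tested peaks. At an unadjusted p under 0.05 there were 105 wide peaks and 5454 of all tested peaks, and DESeq2 called 5 wide peaks.

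The peak higher in pro-HSC/HPC with the smallest adjusted p was chr1:162969128-162971538 (2410 bp), with 35.1, 36.9 and 37.0 CPM in pro-HSC/HPC, against 9.93, 14.5, 5.71 and 9.40 CPM in E9.5 HE. The groups did not overlap (log2 change of 1.82 ± 0.34, SE; adjusted p = 0.00157, edgeR). It was also higher in pre-HSC II, with 38.4, 90.2, 40.6 and 56.5 CPM, than in E10.5 EC, with 7.54, 10.7, 6.92 and 7.92 CPM (log2 change of 2.76 ± 0.34, SE; adjusted p = 4.47e-09, edgeR). The level was not high in blood populations alone, with 42 ± 12 CPM in E8.5 EC and 27.9 ± 7.9 CPM in E8.5 HE (SD, n = 4 each). From E8.5 to E9.5 the log2 change was -1.18 in EC and -1.41 in HE. At chr5:108152854-108155376 (2522 bp) pro-HSC/HPC had 53.9, 64.6 and 76.3 CPM, against 22.0, 18.2, 25.7 and 22.7 CPM in E9.5 HE. This was a log2 change of 1.56 ± 0.35 (SE; adjusted p = 0.0109, edgeR), lost without pro-HSC/HPC library 2 or 3 or E9.5 HE library 2 (adjusted p = 0.0539, 0.0833 and 0.0619), with log2 changes of 1.5, 1.37 and 1.45. Here E9.5 HE in turn exceeded E9.5 EC by a log2 change of 1.61 ± 0.36 (SE; adjusted p = 0.00559, edgeR), which was not called without the 3 E9.5 libraries or after thinning (adjusted p = 0.173 and 0.0748).

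The peak chr10:74826194-74828242 (2048 bp) was called in 8 tests, more than any other peak named here. It had 48.2, 54.4, 57.1 and 68.4 CPM in E8.5 HE, against 13.0, 12.2, 12.9 and 19.1 CPM in E8.5 EC. At E9.5 it had 37.8, 31.4 and 39.3 CPM in pro-HSC/HPC, 121.9, 120.6, 98.7 and 121.0 CPM in HE and 144.2, 103.4, 127.3 and 132.3 CPM in EC. At E10.5 it had 13.96, 3.76, 7.17 and 14.1 CPM in pre-HSC II, 60.3, 47.8 and 38.1 CPM in pre-HSC I, 101.4, 112.0, 161.3 and 76.6 CPM in HE and 91.0, 138.3, 161.8 and 102.6 CPM in EC. The level was thus higher in HE than in EC at E8.5 without overlap, overlapping between HE and EC at the later days, lower in pre-HSC I and lowest in pre-HSC II. The log2 change was 1.97 ± 0.26 for E8.5 HE against E8.5 EC, 3.11 ± 0.26 for E9.5 EC against E8.5 EC and 1.01 ± 0.23 for E9.5 HE against E8.5 HE (SE; adjusted p = 2.05e-06, 5.25e-13 and 0.00814, edgeR). It was -1.68 ± 0.27 for pro-HSC/HPC against E9.5 HE, -2.29 ± 0.32 for pre-HSC II against pre-HSC I and -3.63 ± 0.30 for pre-HSC II against E10.5 EC (SE; adjusted p = 0.000298, 5e-06 and 1.12e-13, edgeR). Pre-HSC I against E10.5 HE gave -1.22 ± 0.26 (SE; adjusted p = 0.0342, edgeR), the single wide peak called in that comparison, and the call was lost without any 1 of E10.5 HE libraries 2 and 3 and pre-HSC I libraries 2 and 4 (adjusted p = 0.0906, 0.161, 0.246 and 0.17; log2 changes from -1.24 to -1.02) and after thinning to equal counts (adjusted p = 0.0945). The gap between HE and EC changed by -2.10 ± 0.34 at E9.5 relative to E8.5 (SE; adjusted p = 0.000438, edgeR). This change and that of E9.5 HE against E8.5 HE were not called without the 4 shallow E8.5 libraries (adjusted p = 0.0647 and 0.261), and without the 3 E9.5 libraries E9.5 HE against E8.5 HE was not called (adjusted p = 0.0539). Several of these comparisons share a group of libraries.

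Pre-HSC II showed the most calls among wide peaks, nearly all lower with TMM, and the size and direction of the common shift depended on the scaling. Against pre-HSC I, 3 were higher and 392 lower (0.139% and 18.1%), beside 0.827% and 4.06% of all tested peaks. Against E10.5 EC, 51 were higher and 1031 lower (2.36% and 47.7%), beside 9.15% and 16.2% of all tested peaks. At like density 11.7% and 35.0% were lower, and at like mean count 18.6% and 46.1%, close to the wide peaks. The median log2 change of wide peaks against E10.5 EC was -0.59 with TMM, -0.31 with RLE size factors and 0.08 with cyclic loess offsets, while the median of all tested peaks was -0.14, 0.13 and 0.11. RLE size factors thus moved the median of all tested peaks up by 0.27, and the wide peaks lay 0.44 to 0.45 below that median under TMM, RLE size factors and DESeq2 and 0.03 below it with loess offsets. Loess offsets remove by construction any change that follows a peak's mean level, and wide peaks are high in mean level. The calls against E10.5 EC were 139 higher and 669 lower with RLE size factors, 156 and 701 with DESeq2 and 415 and 292 with loess offsets. Over all 67131 tested peaks these were 8332 and 7702, 10161 and 8267, and 8403 and 6798. Against pre-HSC I the wide peaks called were 12 and 136, 28 and 195, and 60 and 47. Over all tested peaks these were 888 and 1237, 1880 and 1711, and 979 and 974. With each library thinned to 456770 counts 200 were higher and 383 lower against E10.5 EC, and 23 and 95 against pre-HSC I. The median log2 change of wide peaks was then -0.09 and -0.15, against -0.59 and -0.52 with TMM at full depth. Thinned values are given for wide peaks only, and whether all tested peaks moved alike was not tested. Without pre-HSC I library 1, 117 were called against pre-HSC I, without pre-HSC II library 2, 158, and without pre-HSC I library 2, 249. Depth moves with the group, since pre-HSC II was the shallowest group, and its part in the shift was not tested beyond the thinning.

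Some calls held under all 4 scalings. Against E10.5 EC these were 50 wide peaks higher and 292 lower in pre-HSC II, and against pre-HSC I 3 and 47. Here and in the other comparisons, calls under all 4 scalings were counted for wide peaks only. Whether their number is particular to wide peaks was not tested. No wide peak called with TMM was called in the opposite direction with loess offsets in any of the 11 comparisons.

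Of the wide peaks higher in pre-HSC II, chr7:95425467-95427797 (2330 bp) had 157.1, 115.3, 93.2 and 86.2 CPM in pre-HSC II, against 32.1, 44.3 and 34.5 CPM in pre-HSC I and 33.9, 23.2, 6.34 and 24.0 CPM in E10.5 EC. All pre-HSC II libraries lay above all others of that day, with log2 changes of 1.59 ± 0.32 against pre-HSC I and 2.37 ± 0.30 against E10.5 EC (SE; adjusted p = 0.0013 and 7.44e-09, edgeR). At chr9:78322907-78325817 (2910 bp) pre-HSC II had 55.9, 111.5, 65.7 and 61.7 CPM, against 15.4, 45.8 and 42.3 CPM in pre-HSC I. The log2 change was 1.08 ± 0.30 (SE; adjusted p = 0.0246, edgeR), and the call was lost without pre-HSC I library 1 or pre-HSC II library 2 (adjusted p = 0.26 and 0.145; log2 changes of 0.72 and 0.82).

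Of those lower, chr5:76317469-76319516 (2047 bp) had the largest range of all wide peaks, 4.73 on the log2 scale. It had 0.0, 2.50, 11.9 and 8.92 CPM in pre-HSC II, against 89.8, 46.3 and 33.4 CPM in pre-HSC I and 65.0, 72.3, 87.7 and 67.7 CPM in E10.5 EC. The groups did not overlap, with log2 changes of -3.09 ± 0.40 against pre-HSC I and -3.48 ± 0.38 against E10.5 EC (SE; adjusted p = 6.07e-07 and 2.3e-10, edgeR). It was also lower in pro-HSC/HPC, with 33.2, 45.2 and 24.7 CPM, than in E9.5 HE, with 108.0, 136.2, 81.0 and 115.5 CPM (log2 change of -1.67 ± 0.31, SE; adjusted p = 0.00169, edgeR). At chr12:59368202-59370905 (2703 bp) pre-HSC II had 69.8, 27.6, 23.9 and 40.9 CPM, against 224.5, 153.4 and 121.5 CPM in pre-HSC I. This was a log2 change of -2.07 ± 0.26 without overlap (SE; adjusted p = 2.94e-07, edgeR). At chr8:106618748-106621517 (2769 bp) pre-HSC II had 13.96, 10.02, 14.3 and 20.8 CPM, against 96.6, 189.0, 253.5 and 135.8 CPM in E10.5 EC, a log2 change of -3.46 ± 0.33 (SE; adjusted p = 5.26e-12, edgeR). These 3 peaks were called lower under all 4 scalings. Of the 26 wide peaks lower in pro-HSC/HPC than in E9.5 HE, 11 were also lower in pre-HSC II than in pre-HSC I, 42.3% of the 26 and 2.81% of the 392, beside 37.7% and 10.2% of the lists over all tested peaks.

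**Figure D4:**
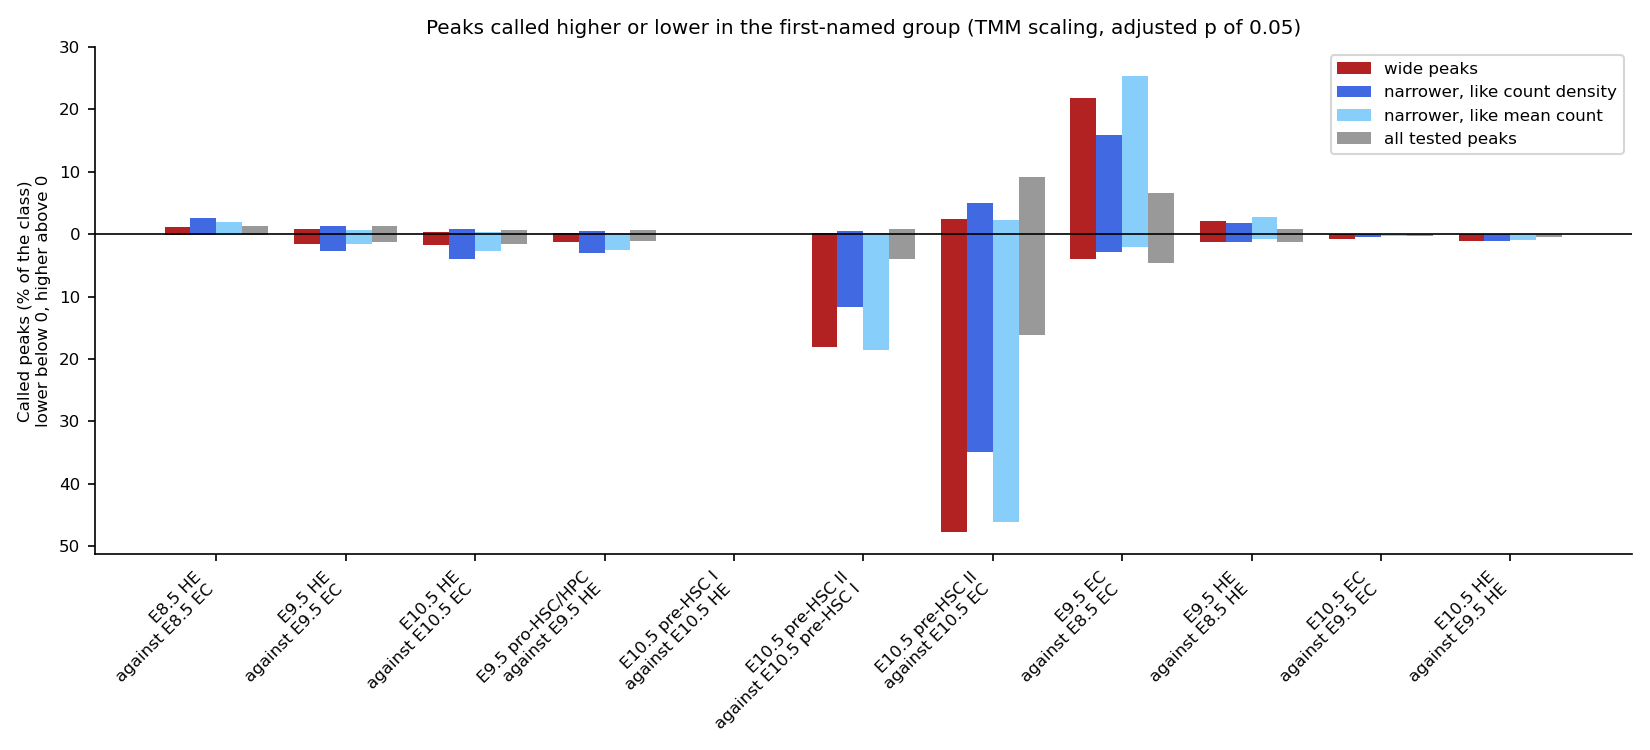
Percent of wide peaks, of narrower peaks of like density or like mean count, and of all tested peaks called higher (above 0) or lower (below 0) in the first-named group of each comparison, with TMM scaling. Wide peaks were lower in 47.7% for pre-HSC II against E10.5 EC and higher in 21.9% for E9.5 EC against E8.5 EC, near the shares at like mean count of 46.1% and 25.3%, while HE against EC stayed under 2% in either direction.

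Between E8.5 and E9.5 473 wide peaks rose in EC with TMM, a count that changed with the E8.5 libraries used and a direction that turned with cyclic loess offsets. In E9.5 EC those 473 were higher and 85 lower than in E8.5 EC (21.9% and 3.93%), beside 6.52% and 4.57% of all tested peaks. At like density 15.9% were higher and at like mean count 25.3%. The median log2 change was 0.37 in wide peaks and -0.07 in all tested peaks. In E9.5 HE 44 were higher and 28 lower than in E8.5 HE (2.04% and 1.30%), beside 0.898% and 1.24% of all tested peaks, with a median of 0.24 in wide peaks. With RLE size factors 513 were higher and 116 lower in EC, and 59 and 57 in HE, beside 4127 and 3605, and 594 and 1347, of all tested peaks. With loess offsets the direction turned, with 111 higher and 229 lower in EC and 21 and 104 in HE, and medians of -0.04 and -0.05. Over all tested peaks, loess offsets gave 3820 higher and 2809 lower in EC, and 684 and 979 in HE. Without the 4 shallow E8.5 libraries, which leaves 2 in each E8.5 group, 17 were higher and 34 lower in EC with a median of 0.17 over wide peaks, and 0 and 1 in HE. Without the 3 E9.5 libraries noted above, 152 were higher and 27 lower in EC, and 4 and 5 in HE. These counts with libraries left out are given for wide peaks only and were not compared with all tested peaks. Under all 4 scalings 110 were higher and 84 lower in EC, and 20 and 27 in HE. The comparisons in EC and HE share no library. Of the 473 and 44 higher, 22 were shared, 4.65% and 50.0%, beside 4.27% and 31.0% over all tested peaks. Of the 85 and 28 lower, 8 were shared, 9.41% and 28.6%, beside 8.12% and 29.9%.

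**Figure D5:**
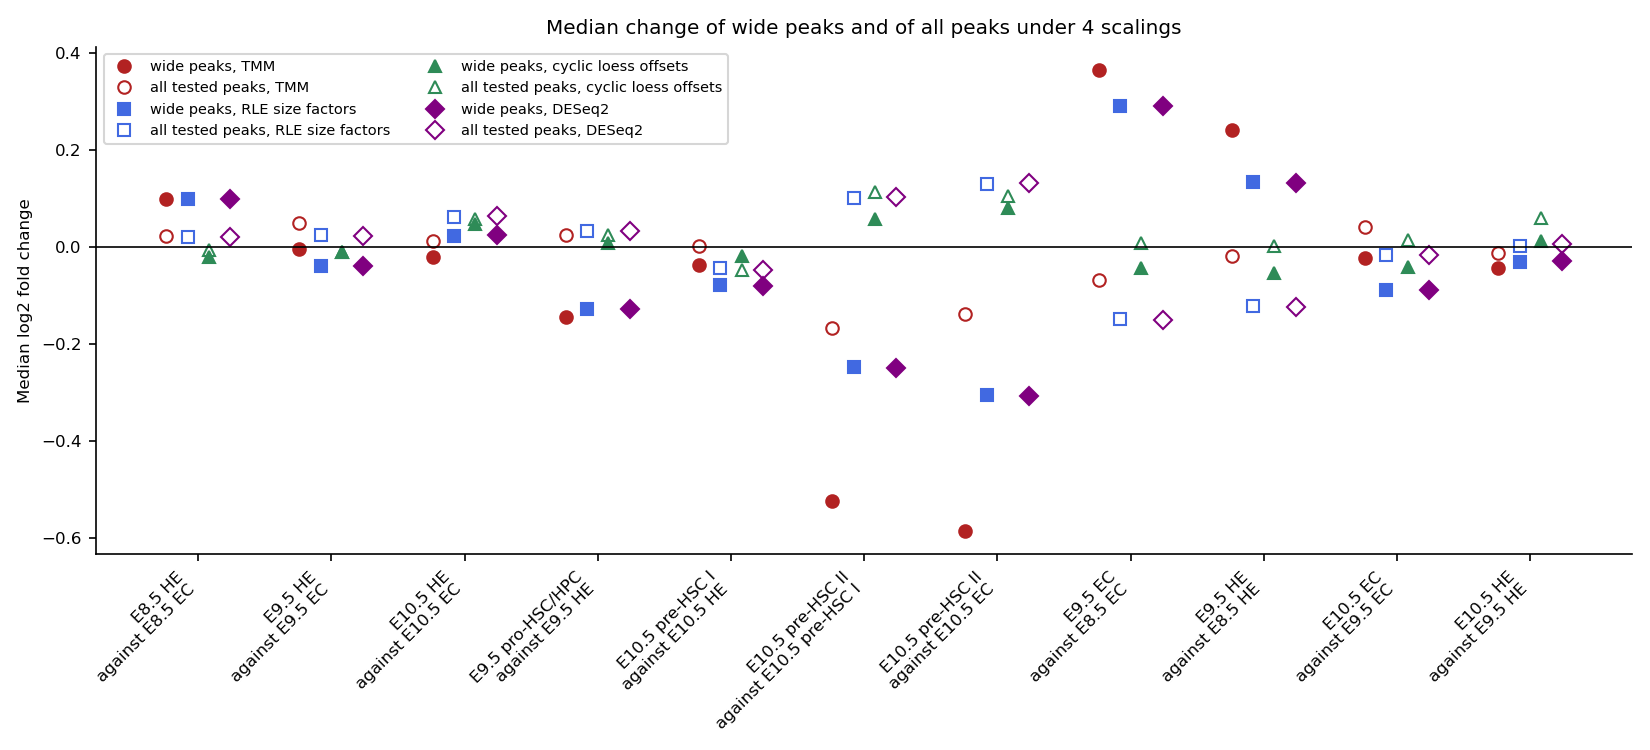
Median log2 fold change of wide peaks (filled) and of all tested peaks (open) in each comparison under TMM, RLE size factors, cyclic loess offsets and DESeq2. The wide peaks' medians for pre-HSC II and for E9.5 against E8.5 stand away from 0 with all but the loess offsets, while those of HE against EC stay between -0.04 and 0.10.

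Single wide peaks changed over this day without overlap. Among peaks higher in E9.5 EC, the smallest adjusted p after that of chr10:74826194-74828242 was at chr16:13232054-13234144 (2090 bp), with 74.5, 102.7, 86.6 and 75.3 CPM in E9.5 EC, against 18.7, 26.2, 28.1 and 27.7 CPM in E8.5 EC. Every E9.5 library was above every E8.5 library (log2 change of 1.74 ± 0.29, SE; adjusted p = 4.69e-05, edgeR). Lower in E9.5 EC was chr10:106708183-106710202, with 8.10, 11.5, 8.84 and 13.4 CPM, against 73.5, 55.8, 52.3 and 48.6 CPM in E8.5 EC (log2 change of -2.45 ± 0.41, SE; adjusted p = 4.36e-05, edgeR). The other peak named as lower, chr9:8899730-8902200, averaged 14.1 ± 4.9 CPM in the E9.5 EC libraries and 52 ± 24 CPM in those of E8.5 EC (SD, n = 4 each; log2 change of -1.81 with adjusted p = 0.000122, edgeR).

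In HE, chr11:23975940-23978416 (2476 bp) had 108.9, 93.0, 110.7 and 102.6 CPM in E9.5 HE, against 34.3, 45.4, 49.2 and 46.5 CPM in E8.5 HE, a log2 change of 1.23 ± 0.23 without overlap (SE; adjusted p = 0.000857, edgeR). It was high again in pro-HSC/HPC, at 116 ± 15 CPM (n = 3), and in pre-HSC I, at 146 ± 25 CPM (SD, n = 3). E10.5 HE was as high, at 137.5 ± 22.8 CPM, while E10.5 EC had 83.6 ± 5.7 CPM and pre-HSC II 74 ± 37 CPM (SD, n = 4 each). At chr16:18703793-18705935 (2142 bp) E9.5 HE had 55.8, 58.5, 42.8 and 79.9 CPM, against 9.63, 22.0, 22.8 and 23.6 CPM in E8.5 HE, a log2 change of 1.57 ± 0.30 (SE; adjusted p = 0.00102, edgeR). Here E9.5 HE was also above E9.5 EC, which averaged 20.5 ± 4.4 CPM (SD, n = 4; log2 change of 1.49 ± 0.29, SE; adjusted p = 0.0013, edgeR), a call lost without the 3 E9.5 libraries (log2 change of 1.21, adjusted p = 0.277). Lower in E9.5 HE were chr11:16950946-16952999 and chr1:75442165-75444559. The first averaged 39 ± 12 CPM in E9.5 HE and 103 ± 15 CPM in E8.5 HE, and the other 18.6 ± 2.5 and 52.4 ± 9.4 CPM in the same groups (SD, n = 4 each; log2 changes of -1.38 and -1.5 with adjusted p = 0.001 and 0.00101, edgeR). Without the 4 shallow E8.5 libraries the calls at chr11:23975940-23978416, chr16:18703793-18705935 and chr11:16950946-16952999 were lost (adjusted p = 0.082, 0.104 and 0.102; log2 changes of 1.15, 1.38 and -1.19).

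Between E9.5 and E10.5 few wide peaks changed, and nearly all of those called were lower at E10.5. In EC 1 was higher and 16 lower at E10.5 (0.0463% and 0.740%), beside 0.0685% and 0.255% of all tested peaks. In HE 0 were higher and 23 lower (0.0% and 1.06%), beside 0.0626% and 0.495% of all tested peaks. At like density 0.432% were lower in EC and 1.04% in HE. Calls in HE were 7 higher and 43 lower with loess offsets and 15 and 68 with DESeq2, beside 103 and 379, and 307 and 1046, of all tested peaks. In EC 16 lower and in HE 22 lower were called under all 4 scalings. Without the 3 E9.5 libraries 0 were higher and 2 lower in EC, and 0 and 13 in HE. Without E10.5 HE library 3, 69 wide peaks were called in HE, and without E10.5 HE library 1, 7.

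In EC, chr13:23597416-23599651 (2235 bp) had 16.5, 34.9, 36.1 and 24.6 CPM at E10.5, against 74.0, 87.8, 72.5 and 88.0 CPM at E9.5. The days did not overlap (log2 change of -1.51 ± 0.27, SE; adjusted p = 0.00141, edgeR). It was low in all E10.5 populations, at 21.1 ± 7.9 CPM in pre-HSC II, 20.5 ± 4.7 CPM in pre-HSC I and 22.1 ± 8.9 CPM in E10.5 HE (SD, n = 4, 3 and 4). On the same chromosome, chr13:23503042-23505625 (2583 bp) had 49.0, 79.0, 79.6 and 60.4 CPM in E10.5 EC, against 136.1, 147.9, 208.6 and 223.8 CPM in E9.5 EC. It was lower at E10.5 in EC and in HE, by log2 changes of -1.41 ± 0.25 and -1.0 ± 0.26 (SE; adjusted p = 0.00176 and 0.0478, edgeR), and without the 3 E9.5 libraries the call in EC was lost (log2 change of -1.06, adjusted p = 0.279). The call in HE was lost without these (adjusted p = 0.104), after thinning (adjusted p = 0.145) and without any 1 of the 4 E9.5 HE libraries and E10.5 HE libraries 1 and 4 (adjusted p from 0.0623 to 0.254). The single wide peak higher in E10.5 EC was chr7:28115515-28117922, at 41 ± 10 CPM in E10.5 EC and 16.7 ± 5.5 CPM in E9.5 EC (SD, n = 4 each; log2 change of 1.25 with adjusted p = 0.0303, edgeR). Leaving out any 1 of 7 of the 8 libraries ended that call, with adjusted p from 0.0599 to 0.129, as did thinning and leaving out the 3 E9.5 libraries (adjusted p = 0.157 and 0.479).

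In HE, chr16:89829960-89832087 (2127 bp) had 17.7, 60.6, 72.3 and 33.1 CPM at E10.5, against 115.5, 143.1, 97.0 and 126.9 CPM at E9.5. At chr1:82969570-82971678 (2108 bp) E10.5 HE had 25.8, 66.7, 65.3 and 25.8 CPM, against 125.9, 126.7, 115.2 and 151.2 CPM in E9.5 HE. Neither overlapped between the days (log2 changes of -1.35 ± 0.25 and -1.45 ± 0.27, SE; adjusted p = 0.002 and 0.00221, edgeR), and E10.5 HE libraries 1 and 4, the shallow ones of their group, were the lowest at both. At both peaks the pre-HSC II libraries overlapped with those of E10.5 HE. Both peaks were lower in pre-HSC II than in E10.5 EC, by log2 changes of -1.83 ± 0.28 and -2.18 ± 0.31 (SE; adjusted p = 7.27e-07 and 2e-07, edgeR). With cyclic loess offsets the first was -1.18 (adjusted p = 7.17e-05).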

How the data were processed

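The authors deposited 1 table of raw counts per peak, not normalized, for 76018 peaks and 35 libraries. Per the submitters' processing notes, the build was mm9 and the tools named are DiffBind 1.14.6, MACS2 2.0.1, deepTools, bedtools 2.17.0, SAMtools, Bowtie 1.0.0 and Trim Galore 0.3.1. The roles and settings of these tools, read filters, any shift to the transposase's cut site and whether starts count from 0 or 1 are steps not given in the sources used here. In each library even values made up 54.1% to 78.2% of the counts from 10 to below 50. Comparing pre-HSC I library 2 with library 3 gave a chi-square over its degrees of freedom of 0.461, and the 50 other pairs within groups gave 2.59 to 8.04.

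Peaks were filtered with filterByExpr, which kept 67131 and removed 8887 and no wide peak, scaled with TMM and fitted with edgeR 4.0.16 (glmQLFit, glmQLFTest, two-sided) in 1 model of 9 group means with 25 residual degrees of freedom. Calls were made at a Benjamini-Hochberg adjusted p of 0.05 over all tested peaks. CPM values use the TMM-adjusted library size. Named peaks were the 3 widest, the 2 with the smallest adjusted p per comparison and direction, the 3 with the smallest and the 3 with the largest range, and the 2 nearest the width threshold on either side. Peaks on chromosome 18 were counted and not named. Narrower peaks were weighted over deciles of the wide peaks' density or mean count. The regions, lists and tests were chosen with earlier results of these data known. The fit was tested on simulated data. Pairing by replicate number was checked by the correlation of deviations of same-numbered libraries, and all were over 0.1 only for E10.5 HE and EC (0.248, 0.188, 0.331 and 0.125), so the blocked values stand beside that comparison. Alternatives were RLE size factors, cyclic loess offsets, DESeq2 1.42.0, no count filter, a fit of the compared groups alone, a replicate block, other width and density classes and leaving out each library. Those added after seeing the data were thinning, both pre-HSC I libraries 2 and 3 as separate samples, leaving out 4 shallow E8.5 libraries or 3 E9.5 libraries, and E10.5 HE and EC alone with a block. Other software was R 4.3.3, Python 3.11.15, numpy 2.4.6, pandas 2.3.3 and matplotlib 3.10.9.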

Additional observations from a re-analysis of the deposited data

Results flagged for a closer look

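Among 259 groups of 4 libraries at the named peaks, 13 had a highest or lowest library far from the other 3, about the 1 in 20 that chance gives. The low ones were 98.7 CPM in E9.5 HE library 3 at chr10:74826194-74828242 (others from 120.6 CPM), 72.2 CPM in E8.5 HE library 1 at chr11:89977606-89979851, 26.0 CPM in pre-HSC II library 4 at chr2:172860269-172862589, 50.0 CPM in E10.5 HE library 4 at chr3:8766011-8768463, 9.63 CPM in E8.5 HE library 1 at chr16:18703793-18705935, 21.7 CPM in E9.5 HE library 3 at chr11:16950946-16952999 and 35.4 CPM in E8.5 HE library 3 at chr11:58766958-58768958. The high ones were 572.1 CPM in E9.5 EC library 4 at chr4:94713400-94721656 (others up to 466.4 CPM), 97.9 CPM in pre-HSC II library 3 at chr2:26444832-26452287 (others up to 32.7 CPM), 19.1 CPM in E8.5 EC library 4 at chr10:74826194-74828242, 136.5 CPM in pre-HSC II library 2 at chr11:110925682-110928245, 56.2 CPM in E10.5 HE library 3 at chr14:64561046-64563046 and 103.3 CPM in pre-HSC II library 4 at chr4:47365068-47367067.

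The gap between HE and EC differed between E9.5 and E8.5 at 9 named peaks in edgeR's interaction contrast. On the log2 scale it rose by 2.43 at chr5:108152854-108155376, 1.57 at chr16:18703793-18705935, 1.40 at chr3:8766011-8768463 and 1.38 at chr2:172860269-172862589. The change was -2.10 at chr10:74826194-74828242, -1.67 at chr19:3685809-3688390, -1.52 at chr2:84970686-84973368, -1.49 at chr16:30185813-30188647 and -1.27 at chr13:23503042-23505625. Adjusted p ran from 0.000438 to 0.0475. Without the 4 shallow E8.5 libraries none of the 9 was called, with adjusted p from 0.0647 to 0.503. After thinning the change at chr5:108152854-108155376 was 4.07.

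Outside the autosomes, the wide peak chrX:103380576-103383382 held 9126 counts in E9.5 HE library 4, with 7280 and 6470 in E9.5 EC libraries 4 and 3, against 50 to 1282 in the other libraries.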

How the results depend on the processing

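The 38 pairs of a named peak and the comparison that named it kept their call in 598 of 636 alternative values, lost it in 38 and reversed in none. Only 19 of the 38 pairs kept the call in every alternative, and the alternatives are fits of the same data. A limit is depth, which as a group was lowest in pre-HSC II. E8.5 libraries 1 and 2 were shallower than libraries 3 and 4 of their groups. Also shallow were E9.5 EC library 3, pro-HSC/HPC library 3 and E10.5 HE libraries 1 and 4, at 1101787 to 1232426 counts. Counts of wide peaks called moved by over 1.5 times as follows, in most cases for causes that were not tested. Counts after thinning or with libraries left out are given for wide peaks only.

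For E8.5 HE against EC the count of 29 was 79 with DESeq2, 99 with only these groups and 1 without the shallow E8.5 libraries. For E9.5 HE against EC the count of 52 was 85 with loess offsets, 102 with DESeq2, 267 with only these groups and 0 without the 3 E9.5 libraries. For E10.5 HE against EC the count of 46 was 70 with loess offsets, 86 with DESeq2, 1 with only these groups and 103 with these groups and a replicate block. For pro-HSC/HPC against HE the count of 29 was 49 with RLE size factors, 96 with DESeq2, 228 with only these groups and 14 without the 3 E9.5 libraries. For pre-HSC I against HE the count of 1 was 2 with RLE size factors, 2 with loess offsets, 5 with DESeq2, 0 with only these groups, 0 thinned and 6 with libraries 2 and 3 apart. For pre-HSC II against pre-HSC I the count of 395 was 148 with RLE size factors, 107 with loess offsets, 223 with DESeq2, 95 with only these groups, 118 thinned and 614 with libraries 2 and 3 apart. For pre-HSC II against EC the count of 1082 was 707 with loess offsets, 606 with only these groups and 583 thinned. For E9.5 against E8.5 EC the count of 558 was 340 with loess offsets, 929 with only these groups, 363 thinned, 51 without the shallow libraries and 179 without the 3 E9.5 libraries. For E9.5 against E8.5 HE the count of 72 was 116 with RLE size factors, 125 with loess offsets, 192 with DESeq2, 632 with only these groups, 114 thinned, 1 without the shallow libraries and 9 without the 3 E9.5 libraries. For E10.5 against E9.5 EC the count of 17 was 27, 32 and 62 with RLE size factors, loess offsets and DESeq2, 66 with only these groups and 2 without the 3 E9.5 libraries. For E10.5 against E9.5 HE the count of 23 was 43, 50 and 83 with these scalings, 3 with only these groups and 13 without the 3 E9.5 libraries. For the change of the gap between HE and EC at E9.5 relative to E8.5 the count of 36 was 65, 56 and 116 with these scalings, 180 with only these groups, 0 without the shallow libraries and 3 without the 3 E9.5 libraries.

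Whether replicate numbers pair libraries is not given in the labels. Correlations of same-numbered libraries were all over 0.1 only for E10.5 HE and EC, and were 0.054 to 0.17 for E9.5 HE and EC. With the replicate number as a block the count was 48 for pro-HSC/HPC against HE, 640 for pre-HSC II against pre-HSC I, 168 for E9.5 against E8.5 HE and 39 for E10.5 against E9.5 HE. The count over the 9 groups was 1478 with the block, against 1389 without it. The block moved the other counts by less than 1.5 times.

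Leaving out each library in turn gave 7 (E8.5 EC 2) to 24 calls for E8.5 HE against EC, 32 (E9.5 EC 4) to 40 for E9.5, 17 (E10.5 EC 3) to 100 (E10.5 HE 3) for E10.5, 11 (pro-HSC/HPC 3) to 21 for pro-HSC/HPC, 0 to 3 for pre-HSC I, 117 (pre-HSC I 1) to 533 for pre-HSC II against pre-HSC I, 872 to 1271 for pre-HSC II against EC, 286 (E8.5 EC 2) to 683 for E9.5 against E8.5 EC, 13 (E9.5 HE 4) to 64 for HE, 4 (E9.5 EC 2) to 12 for E10.5 against E9.5 EC, 7 (E10.5 HE 1) to 69 (E10.5 HE 3) for HE, 15 (E8.5 EC 2) to 45 for the change of that gap at E9.5, 0 in all for that at E10.5, and 1282 to 1495 over the 9 groups.

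With a width of 2500 bp or more, 0.561% were called in E8.5 HE against EC and 0.0% in pre-HSC I against HE. The share of counts was 38.9% in peaks of 1500 bp or more and 10.4% in those of 2500 bp or more. Against narrower peaks of like mean count, the median biological coefficient of variation of wide peaks was higher by 0.0027 and their median range by 0.058 log2, while they were lower against like density, and the surplus of peaks called over the 9 groups was 3.98 percentage points, against 12.5 at like density. Against narrower peaks of 1000 bp or more the differences were -0.017 and -0.065.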
